A study of Mus musculus with 12 samples.

Results

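The epithelial integrins are 10 genes, Itga2, Itga3, Itga5, Itga6, Itgav, Itgb1, Itgb4, Itgb5, Itgb6 and Itgb8, taken by symbol from a table of 53599 genes. All 10 passed the filter on low counts, which kept 16210 genes. They were measured by bulk RNA-seq in cells sorted from the livers of mice labelled WT, with 3 libraries in each of 4 groups. Every mouse had received AAV8-TBG-Cre, a virus whose Cre recombinase is driven by a hepatocyte promoter and which marks hepatocytes and their descendants with EGFP, and then, starting 1 week later, a diet with 0.1% DDC for 8 weeks. DDC injures the bile ducts, and some hepatocytes then take on features of biliary epithelial cells. The early group was EGFP+ Cd24- Epcam-, the intermediate group EGFP+ Cd24+ Epcam-, and the full group EGFP+ Cd24+ Epcam+. The fourth group, BEC, was EGFP- Epcam+ and holds the resident biliary epithelial cells. All 4 groups therefore share the virus and the injury, and no uninjured group was analysed here. Strain and age are not given in the sources used here, nor is it stated that replicates came from separate animals, so p-values measure the spread between these libraries only.

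Integrins are receptors for the extracellular matrix, each built of 1 alpha and 1 beta subunit. Itgb1 pairs with many alpha subunits, among them the collagen receptor subunit Itga2, the laminin receptor subunits Itga3 and Itga6, and the fibronectin receptor subunit Itga5. Itgb4 pairs with Itga6 alone, in the laminin receptor of hemidesmosomes, which anchors epithelia to their basement membrane. Itgav pairs with Itgb1, Itgb5, Itgb6 and Itgb8 in receptors for ligands with the RGD motif, such as vitronectin, fibronectin and osteopontin, and its pairs with Itgb6 and Itgb8 release active TGF-beta from its latent complex. Bile ducts rest on a laminin-rich basement membrane, whereas hepatocytes face a looser matrix without a continuous one.

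Promoters of 8 of the 10 genes were found in RefSeq (GRCm38.p6), and 3 are shown here: those of Itgb6 and Itgb8, the Itgav partners with the lowest early levels, and that of Itgb1, the shared subunit. Each line gives the 250 bases before the transcription start, 5′ to 3′, and for Itgb6 the outermost of 2 listed starts was used. The window of Itgb6 is chr2:60722604-60722853 on the minus strand with 52% G and C, that of Itgb8 is chr12:119238277-119238526 on the minus strand with 62.4%, and that of Itgb1 is chr8:128685404-128685653 on the plus strand with 68%.
Itgb6: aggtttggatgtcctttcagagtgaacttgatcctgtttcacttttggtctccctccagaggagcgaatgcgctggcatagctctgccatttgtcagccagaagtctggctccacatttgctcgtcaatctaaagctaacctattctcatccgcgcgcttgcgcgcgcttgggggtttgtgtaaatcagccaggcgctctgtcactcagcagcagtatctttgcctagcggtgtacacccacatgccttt
Itgb8: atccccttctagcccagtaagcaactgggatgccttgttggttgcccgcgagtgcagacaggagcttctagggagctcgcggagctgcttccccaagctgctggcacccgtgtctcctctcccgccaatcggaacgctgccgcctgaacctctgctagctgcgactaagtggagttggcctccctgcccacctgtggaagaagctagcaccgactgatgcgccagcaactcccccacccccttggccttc
Itgb1: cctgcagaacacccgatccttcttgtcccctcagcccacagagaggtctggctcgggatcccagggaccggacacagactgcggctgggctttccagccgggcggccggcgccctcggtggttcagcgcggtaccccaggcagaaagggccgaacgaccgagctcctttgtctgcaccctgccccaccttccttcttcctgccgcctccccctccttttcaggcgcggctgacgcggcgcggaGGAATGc
Capitals mark the only match among the 8 genes to 3 motifs searched on both strands of 300-base windows that also hold the 50 bases after the start. The match is GGAATG, the motif of the TEAD factors, at position 244 of the plus strand of the Itgb1 window, counted from 1 at its 5′ end. Among 32851 mouse promoters of that length, 14.66% held GGAATG, 7.808% held the AP-1 motif TGANTCA and 4.204% held the Grainyhead motif AACNNGTT. No 2 of these motifs overlapped in the 8 windows, and a match is a description of the letters only.

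Libraries held 15112893 to 19731887 counts. The mitochondrial share of counts was 5.45% to 11.4% in early libraries, with the highest in replicate 2, 3.99% to 4.75% in intermediate, 2.20% to 2.48% in full and 2.58% to 3.43% in BEC, and its part in the integrin values was not tested. Levels are given as CPM, read counts scaled to a common library size with TMM factors, and 3 counts, taken as the floor per library, equal 0.128 to 0.273 CPM. Summed over the 8 hepatocyte markers, levels were 95902 to 100063 CPM in early libraries, 14483 to 18878 in intermediate, 3183 to 4167 in full and 2007 to 2635 in BEC. The 9 biliary markers summed to 113 to 131, 625 to 773, 1482 to 1838 and 3541 to 3863 CPM in the same order, with Muc1 at 0 in early libraries, so the markers followed the labels. Among cells the sort could have carried along, neutrophil markers summed to at most 0.339 CPM, platelet markers to at most 4.98, leukocyte markers to at most 7.85 and endothelial markers to at most 19.3. Stellate cell and fibroblast markers summed to 77.5 to 217 CPM in early libraries and to 32.6 to 59.6 in full and BEC libraries. Macrophage markers summed to 20.3 to 22.4 CPM in early and 131 to 142 in BEC libraries, with Csf1r averaging 3.94 CPM in early and 127 in BEC, Cd68 13.9 and 3.46, Clec4f 1.70 and 3.68, Vsig4 0.576 and 1.33, Marco 0.922 and 1.22, and Adgre1 0.135 and 0.522. The part of any such cells in the integrin values was not tested. In bulk samples, fewer cells of a type and less RNA per cell cannot be told apart.

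Most of the 10 integrins rose along the series from early to BEC, and 1, Itgb5, fell. Between early and intermediate cells, 7 of 10 rose and 0 fell, beside a background of 54.4% of all genes tested that changed and 28.7% that rose (edgeR's quasi-likelihood test, Benjamini-Hochberg adjusted p under 0.05). Between intermediate and full cells, 8 rose and 1 fell, against 40.7% of all genes in either direction, 20.8% higher and 19.8% lower. Between full cells and BEC, 5 rose and 0 fell, against 21.3% of all genes in either direction and 10.7% higher. Over the whole span from early to BEC all 10 changed, 9 up and 1 down, beside 73% of all genes in either direction, 40% higher and 33% lower. All 10 also differed among the 4 groups, as did 75.6% of all genes. The median log2 fold change of the 10 was 1.90 at the first step, 0.75 at the second and 0.22 at the third, and that of all genes tested was 0.06, 0.01 and 0.00. From early to BEC the 10 had a median of 3.19, against 0.14 for all genes. The comparisons share groups, so their values are set side by side and are not independent. With total counts in place of TMM scaling, the median of all genes moved to 0.72, 0.21 and 0.01 at the 3 steps. From early to BEC it moved to 1.003. With this scaling 10 integrins were higher and 0 lower at the first step, with Itgb1, Itgb5 and Itgb6 added. All genes called there made up 69.4%, and 85.6% of those calls were higher. Over the span Itgb5 turned to a rise, and 10 integrins were higher and 0 lower. Beside them 82% of all genes were called, and 80.2% of those calls were higher.

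**Figure D1:**
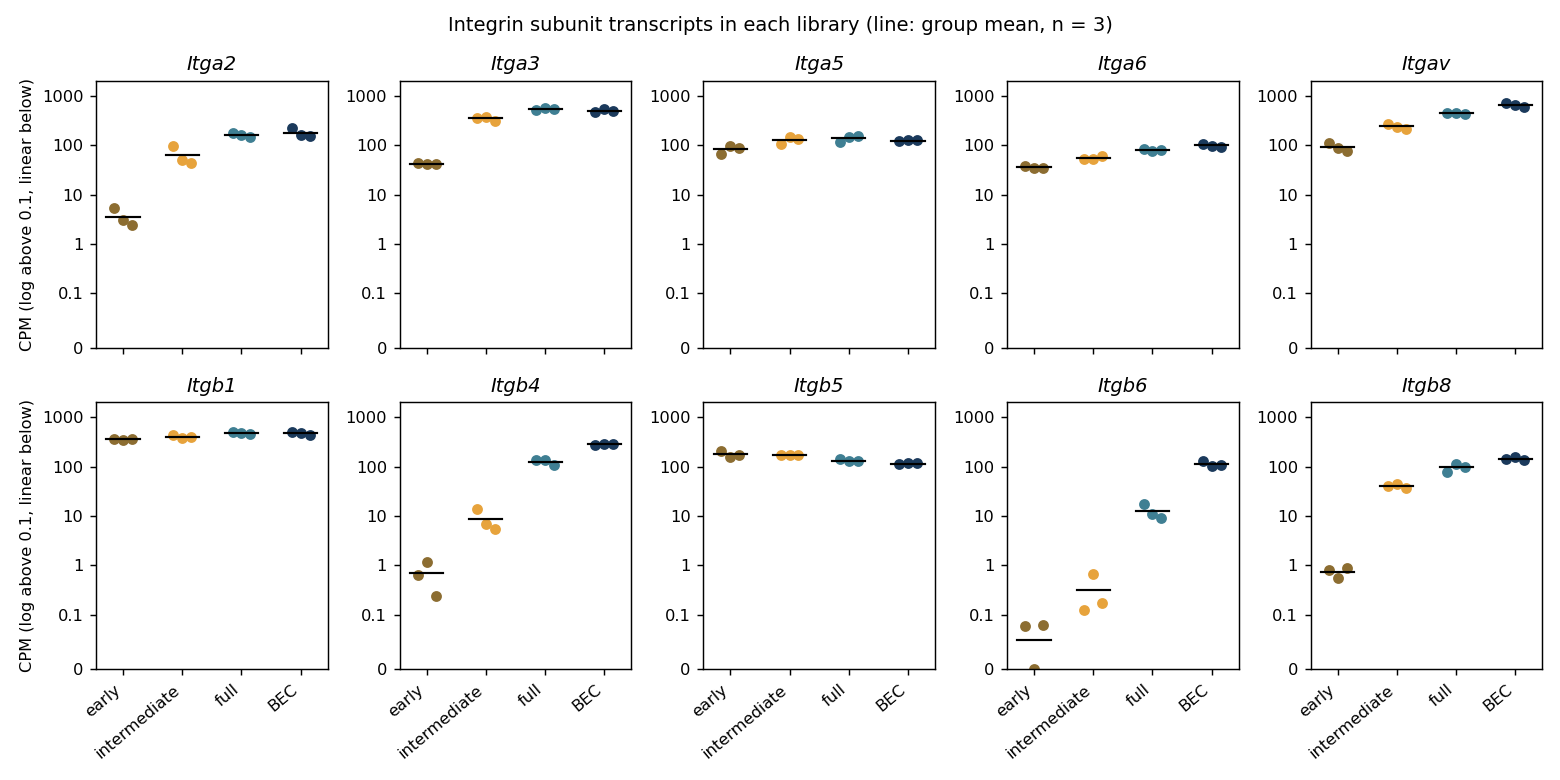
Level of each integrin in every library, in CPM on an axis that is logarithmic above 0.1 and linear below (points), with the group mean (line, n = 3), for early, intermediate, full and BEC cells. Itgb6, Itgb4 and Itgb8 start at or near the floor, Itgb1 stays between 347 and 513 CPM throughout, and Itgb5 is lowest in BEC.

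Itga3, the alpha subunit of the main laminin receptor of basal epithelial surfaces, was one of the integrins with the largest change between early and intermediate cells. Its level was 43.3, 42.1 and 41.3 CPM in the 3 early libraries, 360.0, 382 and 307 in intermediate, 519, 562 and 543 in full, and 462, 531 and 502 in BEC. Every intermediate library lay above every early one and below every full one, whereas full and BEC libraries overlapped. The rise was 8.28-fold at the first step (log2 3.05, SE 0.11, edgeR adjusted p = 2.93e-10) and 1.55-fold at the second (log2 0.63, SE 0.10, edgeR adjusted p = 0.000168). Between full cells and BEC the log2 difference was -0.12 (SE 0.10) and did not pass the test (edgeR adjusted p = 0.469).

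Itga6, the laminin receptor subunit shared by Itgb1 and Itgb4, rose at each step. It stood at 38.5, 34.6 and 34.2 CPM in early libraries, 52.2, 52.0 and 59.5 in intermediate, 83.9, 77.3 and 79.9 in full and 108, 98.1 and 92.7 in BEC. No 2 neighbouring groups overlapped. The steps were 1.53-fold (SE 0.09 on the log2 scale, edgeR adjusted p = 7.54e-05), 1.47-fold (SE 0.09, edgeR adjusted p = 0.000224) and 1.24-fold (SE 0.09, edgeR adjusted p = 0.0228). The third step was lost when full replicate 2 (edgeR adjusted p = 0.0970), full replicate 3 (0.0765), BEC replicate 1 (0.0880) or BEC replicate 2 (0.0603) was left out, and with no filter on low counts (0.152).

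Itgb4, the partner of Itga6 in hemidesmosomes, went from near the floor to one of the more abundant integrins. Early libraries had 8, 13 and 3 counts, or 0.632, 1.18 and 0.243 CPM, and intermediate libraries 13.6, 6.79 and 5.43 CPM. Full libraries reached 135, 137 and 108 CPM and BEC libraries 276, 293 and 285. All 4 groups were separate, and intermediate replicate 1 was well above the other intermediate libraries. Itgb4 rose 12.7-fold at the first step (log2 3.66, SE 0.44, edgeR adjusted p = 9.23e-06), 14.9-fold at the second (log2 3.89, SE 0.27, edgeR adjusted p = 2.08e-07) and 2.24-fold at the third (log2 1.16, SE 0.23, edgeR adjusted p = 0.00237). When 1 library was left out, its first step ran from 3.19 to 4.25 on the log2 scale. A gene on the opposite strand, B230344G16Rik, overlaps Itgb4 in GENCODE M21, and its level was not analysed here.

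The balance of the Itga6 pair shifted along the series. Divided by transcript length, Itga6 averaged 8.30, 12.7, 18.6 and 23.1 CPM per kilobase in early, intermediate, full and BEC cells, and Itgb4 0.110, 1.38, 20.4 and 45.8. The ratio of Itgb4 to Itga6 within a library, per kilobase, was 0.0133 ± 0.00953 in early, 0.111 ± 0.0612 in intermediate, 1.10 ± 0.147 in full and 1.99 ± 0.190 in the resident cells (SD, n = 3 each). Without early replicate 2 the early ratio was 0.00816, and per kilobase of coding sequence the full ratio was 0.933. No groups overlapped in this ratio by transcript length, which was chosen after the levels had been seen and does not depend on library scaling.

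Itga2, the alpha subunit of a collagen and laminin receptor of epithelia and platelets, rose 17.4-fold at the first step (log2 4.12, SE 0.33, edgeR adjusted p = 2.27e-07) and 2.61-fold at the second (log2 1.39, SE 0.26, edgeR adjusted p = 0.000734). Its libraries held 5.29, 3.00 and 2.43 CPM in early, 94.3, 49.9 and 43.9 in intermediate, 181, 163 and 147 in full, and 220.2, 162 and 157 in BEC. Replicate 1 was the highest library in each of the 4 groups, and full and BEC overlapped. The BEC to full difference was 0.14 on the log2 scale (SE 0.25, edgeR adjusted p = 0.784). The summed platelet markers were 0.545 to 0.889 CPM in early libraries and 4.57 to 4.98 in BEC, and their part in the Itga2 values was not tested.

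Itgav, the alpha subunit common to the RGD receptors, rose at each step. Early libraries held 113, 88.8 and 76.8 CPM, intermediate libraries 275, 236 and 214, full libraries 452, 449.65 and 426, and BEC libraries 723, 641 and 595. The 4 groups were separate. The rises were 2.60-fold (log2 1.38, SE 0.14, edgeR adjusted p = 2.20e-06), 1.83-fold (log2 0.87, SE 0.14, edgeR adjusted p = 0.000205) and 1.48-fold (log2 0.56, SE 0.14, edgeR adjusted p = 0.00902). A gene annotated on the opposite strand, Gm13684, overlaps Itgav in GENCODE M21 and had 0 to 40 counts per library, against 950 to 15026 for Itgav. Whether counting used strand is not given in the sources used here.

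Itgb8, a partner of Itgav that holds latent TGF-beta, was the integrin with the largest fold change at the first step. Early libraries had 10, 6 and 11 counts, or 0.790, 0.545 and 0.889 CPM. Levels were 39.8, 45.5 and 36.8 CPM in intermediate, 78.7, 115 and 96.3 in full, and 143, 159 and 134 in BEC, with no overlap between groups. The rise was 53.9-fold from early to intermediate (log2 5.75, SE 0.22, edgeR adjusted p = 5.28e-10), 2.38-fold to full (log2 1.25, SE 0.13, edgeR adjusted p = 7.06e-06) and 1.502-fold to BEC (log2 0.59, SE 0.13, edgeR adjusted p = 0.00496).

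Itgb6, the epithelial partner of Itgav and the other activator of latent TGF-beta, was almost absent from the libraries sorted as Epcam-. It had 1, 0 and 1 counts in early and 2, 12 and 3 counts in intermediate libraries, with 12 of the 17 intermediate counts in replicate 2. The ratio of intermediate to early was 5.90 with a 95% interval of 1.40 to 52.7, which covers counting error only, and the step did not pass the test (edgeR adjusted p = 0.101). It passed with no filter on low counts (0.0133), with total counts only (0.0278) and without full replicate 1 (0.0462). Full libraries held 406, 242 and 209 counts (17.3, 10.8 and 9.13 CPM), and BEC libraries 2742, 2202 and 2368 (132, 102 and 108 CPM). The rise from intermediate to full was 5.22 on the log2 scale (SE 0.39, edgeR adjusted p = 3.54e-07), and 4.87 to 6.31 when 1 library was left out. From full to BEC it was 9.20-fold (log2 3.20, SE 0.24, edgeR adjusted p = 6.12e-07), the largest of the 10 at that step.

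Itgb5, the vitronectin receptor subunit, went the other way. Early libraries held 203, 155 and 172 CPM, intermediate libraries 175, 171 and 173, full libraries 143, 128 and 127, and BEC libraries 112, 116 and 117. Early and intermediate overlapped, and later groups lay below them without overlap. The first step was -0.03 on the log2 scale (SE 0.10, edgeR adjusted p = 0.821). Itgb5 fell by 0.38 at the second step (SE 0.10, edgeR adjusted p = 0.00696), and the third, -0.21 (SE 0.10), did not pass (edgeR adjusted p = 0.167). From early to BEC it fell by 0.62 (SE 0.10, edgeR adjusted p = 6.35e-05). This direction depends on scaling. With total counts only, Itgb5 rose by 0.64 at the first step (edgeR adjusted p = 4.93e-05) and by 0.25 from early to BEC (0.0291), and the second step was -0.18 (0.144).

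Itga5, the fibronectin receptor subunit, rose at the first step, and neither later step passed the test. It held 66.9, 98.4 and 88.4 CPM in early, 108, 148 and 132 in intermediate, 116, 146 and 157 in full, and 120.4, 125 and 127 in BEC. Only the early libraries stood apart from the next group. The first step was 1.53-fold (log2 0.61, SE 0.15, edgeR adjusted p = 0.00375), the second 0.12 on the log2 scale (SE 0.15, edgeR adjusted p = 0.578) and the third -0.17 (SE 0.15, edgeR adjusted p = 0.514).

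Itgb1, the common beta subunit, was abundant everywhere. Levels were 364, 347 and 370.2 CPM in early, 429, 387 and 397 in intermediate, 493, 486 and 469.7 in full, and 513, 481 and 446 in BEC. Full and BEC libraries overlapped, and the earlier groups were separate. Its first step was 0.17 on the log2 scale (SE 0.09, edgeR adjusted p = 0.123), its second 0.26 (SE 0.09, edgeR adjusted p = 0.0307) and the third -0.01 (SE 0.09, edgeR adjusted p = 0.970). The second step was lost without intermediate replicate 2 (0.122), intermediate replicate 3 (0.100), full replicate 1 (0.0846), full replicate 2 (0.0835) or full replicate 3 (0.0567), and with no filter on low counts (0.113). With total counts only, the first step was 0.83 (edgeR adjusted p = 1.68e-06). From early to BEC, Itgb1 rose 1.33-fold (log2 0.41, SE 0.09, edgeR adjusted p = 0.000681).

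**Figure D2:**
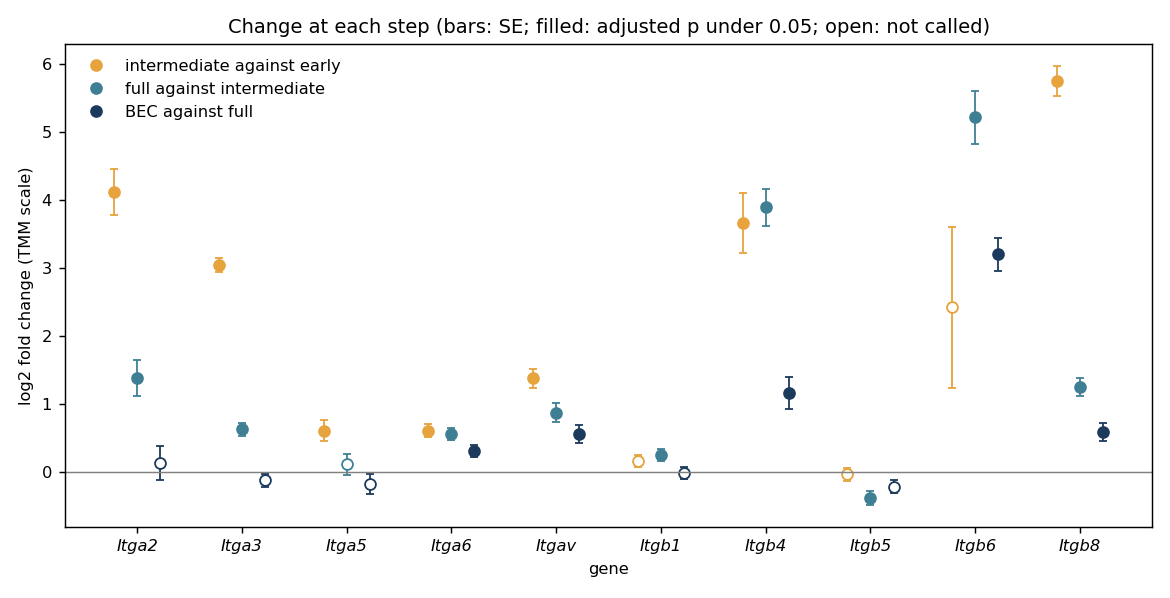
Log2 fold change of each integrin at the 3 steps, from edgeR's fit, with bars of 1 standard error; filled points passed an adjusted p of 0.05. Itgb8, Itga2 and Itga3 have their largest change at the first step, at 5.75, 4.12 and 3.05, and Itgb6 at the second, at 5.22.

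Whether an integrin changed more at one step than at the other was tested directly, as the second step minus the first in the same fit. Itgb8 (-4.50, SE 0.30, edgeR adjusted p = 5.14e-07), Itga2 (-2.73, SE 0.48, edgeR adjusted p = 0.00161) and Itga3 (-2.42, SE 0.16, edgeR adjusted p = 5.79e-07) changed less at the second step, on the log2 scale. These were 3 of 10, beside 16.4% of all genes in either direction, 5.64% with a larger and 10.8% with a smaller second step. With the replicate number as a block the count was 5, beside 21.6% of all genes, with Itga5 (-0.50, edgeR adjusted p = 0.0449) and Itgav (-0.50, 0.0329) added, and without early replicate 1 it was also 5, beside 16.9%, with Itgav (0.0340) and Itgb5 (0.0364) added. With total counts only it was 7, beside 37.9% of all genes, where the median of all genes was -0.54 in place of -0.08. Itgb4, with steps of 3.66 and 3.89, differed by 0.23 (SE 0.70, edgeR adjusted p = 0.874). For Itgb6 the difference was 2.80 with SE 2.14 (edgeR adjusted p = 0.434), and 2.10 to 4.99 when 1 library was left out. At these counts its second step could not be shown to exceed its first.

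How much of the early to BEC distance each gene had covered was computed on log2 CPM. It was computed for the 7 integrins with a fitted log2 rise of at least 1 from early to BEC, the only 7 that moved that far. This share is a description and has no test. At the intermediate stage the share was 0.855 ± 0.046 for Itga3, 0.753 ± 0.021 for Itgb8 and 0.720 ± 0.104 for Itga2 (SD, n = 3). It was 0.492 ± 0.064 for Itgav, 0.413 ± 0.075 for Itga6 and 0.407 ± 0.078 for Itgb4 (SD, n = 3). Itgb6 had covered 0.130 ± 0.097 (SD, n = 3), and 0.0739 without intermediate replicate 2, which held most of its counts. The Itgb6 shares depend on the prior count of 2 used for log2 CPM, which draws low values together. In edgeR's fit, the Itgb6 difference was 2.42 at the first step, which did not pass the test, and 10.84 from early to BEC. In full cells Itga3 stood at 1.034 ± 0.016, Itga2 at 0.978 ± 0.026 and Itgb8 at 0.919 ± 0.037, whereas Itgb4 stood at 0.865 ± 0.022, Itgav at 0.803 ± 0.017, Itga6 at 0.793 ± 0.040 and Itgb6 at 0.659 ± 0.050 (SD, n = 3 each).

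**Figure D3:**
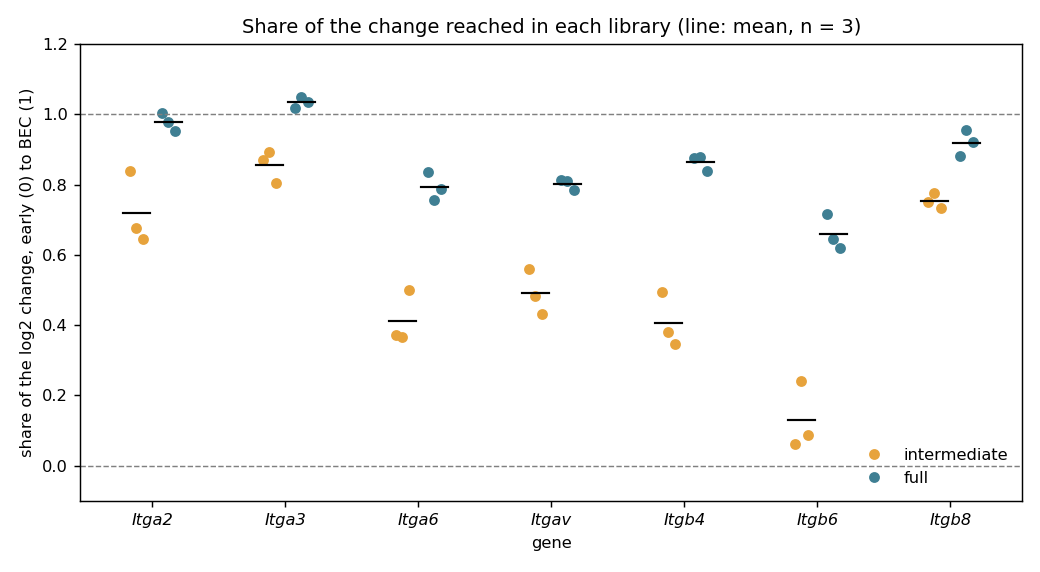
Share of the early to BEC change in log2 CPM reached in each intermediate and full library, for the 7 integrins that rose by at least 1 on the log2 scale; 0 is the early mean and 1 the BEC mean. Itga3, Itgb8 and Itga2 lie furthest along at the intermediate stage, and Itgb6 lies lowest at both stages.

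The beta subunits were then set against each other per kilobase within each library, which removes library scaling. Itgb1 held 63.7% ± 2.82 of the summed level of the 5 beta subunits in early, 64.2% ± 0.863 in intermediate, 62.8% ± 0.944 in full and 50.8% ± 1.41 in the resident cells (SD, n = 3). Itgb5 went from 36.1% ± 2.83 to 32.0% ± 0.923, 20.1% ± 0.948 and 14.2% ± 0.881 (SD, n = 3). Itgb4 went from 0.0761% ± 0.0566 to 0.829% ± 0.384, 10.1% ± 0.930 and 18.5% ± 1.13 (SD, n = 3), with an early share of 0.0454% without early replicate 2. Itgb8 went from 0.0591% ± 0.0120 to 2.94% ± 0.383, 5.73% ± 1.12 and 6.99% ± 0.547, and Itgb6 reached 1.27% ± 0.402 in full cells and 9.58% ± 1.05 in BEC (SD, n = 3). In early cells 2 beta subunits thus held nearly the whole sum, and in BEC all 5 held at least 6.99% on average. Of 20 comparisons of a share between 2 groups, 17 gave the smallest p that 3 against 3 libraries allow, 0.1 (exact permutation test, 2-sided, adjusted p = 0.118), so none could pass 0.05. The exceptions were Itgb1 at the first step (exact p = 0.9) and the second (exact p = 0.2), and Itgb8 at the third (exact p = 0.3). Shares depend on the length used: per kilobase of coding sequence, Itgb8 held 0.143%, 6.80%, 12.8% and 15.3% in the 4 groups in order.

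**Figure D4:**
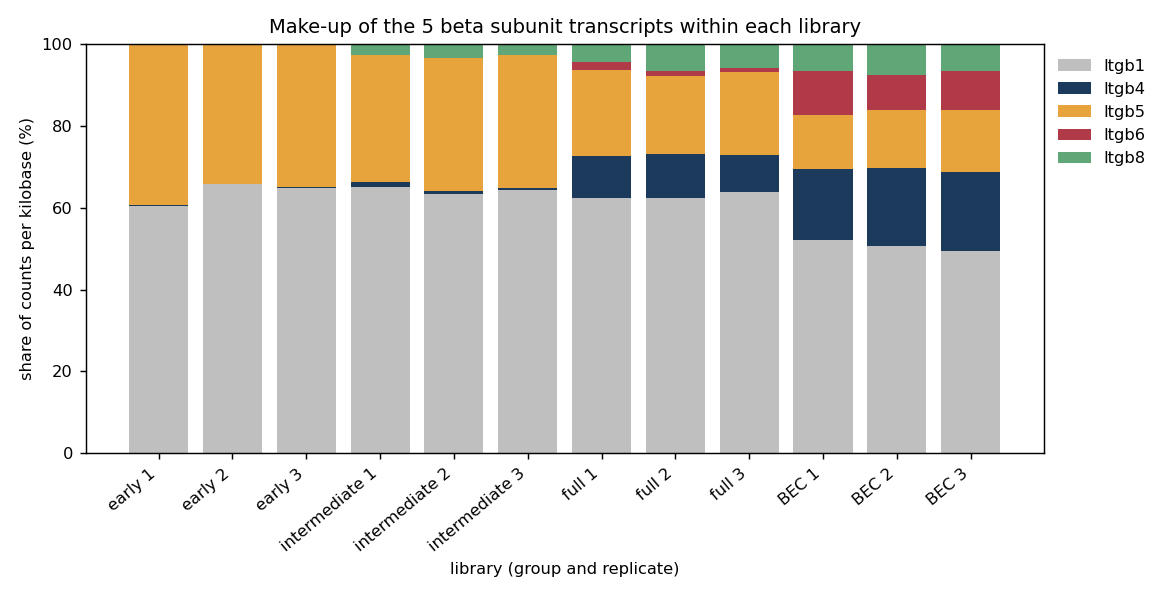
Make-up of the 5 beta subunits in each of the 12 libraries, as stacked percentages of their summed counts per kilobase of transcript. On average over the 3 libraries of a group, Itgb5 goes from 36.1% in early to 14.2% in BEC and Itgb4 from 0.0761% to 18.5%.

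Levels of the beta subunits were also set against that of Itgav. Per kilobase of transcript and within a library, Itgb5 stood at 4.14 ± 0.580 times Itgav in early, 1.55 ± 0.183 in intermediate, 0.645 ± 0.0340 in full and 0.381 ± 0.0449 in the resident cells (SD, n = 3). Itgb8 stood at 0.00691 ± 0.00246, 0.143 ± 0.0203, 0.184 ± 0.0350 and 0.188 ± 0.0210 (SD, n = 3), with overlap between intermediate and full libraries and between full and BEC libraries. Itgb6 stood at 0.0409 ± 0.0133 in full cells and 0.256 ± 0.0189 in BEC (SD, n = 3), still below Itgb5 on this scale. Per kilobase of coding sequence the Itgb5 ratio was 2.51, 0.944, 0.392 and 0.232, and the Itgb8 ratio 0.0112, 0.231, 0.298 and 0.305, above Itgb5 in BEC, where Itgb6 and Itgb5 were both at 0.232.

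Among the alpha subunits, Itga5 and Itgav had the highest levels per kilobase in early cells, at 19.3 and 13.2 CPM per kilobase, ahead of Itga3 at 8.69, Itga6 at 8.30 and Itga2 at 0.503. In BEC the order was Itga3 at 102, Itgav at 92.6, Itga5 at 28.4, Itga2 at 25.3 and Itga6 at 23.1. Itga3 was already above Itga5 in intermediate cells, at 71.9 and 29.5 CPM per kilobase. These orders depend on the length used: per kilobase of coding sequence, Itgav was above Itga5 in early cells, at 29.7 and 26.8, and in BEC Itgav at 208 was above Itga3 at 158 and Itga2 at 50.9 above Itga5 at 39.4. Against Itgb1, Itga3 went from a ratio of 0.0921 ± 0.00396 in early to 0.680 ± 0.0857 in intermediate and 0.881 ± 0.0471 in full, and was 0.818 ± 0.0968 in BEC (SD, n = 3). The Itga5 ratio was 0.205 ± 0.0435, 0.280 ± 0.0570, 0.253 ± 0.0437 and 0.227 ± 0.0221 in the same order (SD, n = 3), with libraries of all groups overlapping. Ratios of subunit transcripts do not measure receptor pairs at the cell surface.

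Of 17 other integrin subunits, 11 could be tested, and 0 changed at the first step in edgeR's test, with 0 also at an unadjusted p under 0.05, beside 54.4% of all genes called. DESeq2 called 1 (Itgae), the fit with the replicate block 1 (Itgal), the fit with total counts only, which called 69.4% of all genes, 4 (Itga1, Itga7, Itga2b and Itgb2l), and the fit without intermediate replicate 3 called 2 (Itgae and Itgal). At the second step 2 rose and 1 fell, beside 40.7% of all genes called, and at the third 1 rose and 1 fell, beside 21.3%. Itga9, a receptor subunit for tenascin and osteopontin, rose from 2.83 ± 1.26 to 25.6 ± 6.48 CPM (log2 3.16), and Itgb2l from 6.39 ± 1.49 to 10.3 ± 1.42 (log2 0.69) (SD, n = 3). Itga7, a laminin receptor subunit of muscle, fell from 26.0 ± 4.27 to 17.2 ± 2.25 CPM (log2 -0.59) (SD, n = 3). The Itgb2l call was lost without intermediate replicate 2 (edgeR adjusted p = 0.116) or 3 (0.123) or full replicate 2 (0.0841) or 3 (0.114), and that of Itga7 with total counts only (0.0571). At the third step Itga9 rose to 54.6 ± 9.51 CPM (log2 1.09) and Itga7 fell to 6.24 ± 1.11 (log2 -1.46) (SD, n = 3), and the Itga9 call was lost without full replicate 1 (0.0689) or BEC replicate 2 (0.0674). The list's median log2 fold change was -0.10, -0.12 and 0.26 at the 3 steps. Among those not tested, the leukocyte subunits Itgb2, Itgax, Itgae and Itgam had at most 26, 26, 25 and 3 counts in any library, Itga11 at most 9, and Itgad 0.

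The matrix ligands of these receptors rose and fell in both directions at once. Of 24 ligand genes, 11 rose and 4 fell at the first step, 13 rose and 2 fell at the second, and 7 rose and 4 fell at the third. The medians were 0.44, 0.78 and 0.41. The third-step count was 11 in all, and 15 with the replicate block, which called 25.3% of all genes at that step. Over all genes tested, the shares called were 54.4%, 40.7% and 21.3% and the medians 0.06, 0.01 and 0.00 at these steps, so the first-step count of 15 of 24 is near the background. At the first step Thbs1, thrombospondin, went from 5.45 ± 3.43 to 174 ± 118 CPM (log2 5.02) and Lamc3, a laminin chain, from 0.376 ± 0.327 to 11.7 ± 7.86 (log2 4.99) (SD, n = 3). The lower ones included Vtn, vitronectin, from 4306 ± 519 to 1876 ± 172 CPM (log2 -1.199), and Col1a2, a fibrillar collagen chain, from 34.7 ± 17.5 to 14.3 ± 9.10 (log2 -1.27) (SD, n = 3). The Col1a2 call was lost without early replicate 2 (edgeR adjusted p = 0.0953) or 3 (0.160) or intermediate replicate 1 (0.125) or 2 (0.112), with DESeq2 (DESeq2 adjusted p = 0.0593), with total counts only (0.261) and in the fit of 6 libraries (0.0577). Col1a2 moved with the stellate cell and fibroblast markers given above, whose part was not tested.

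Lama3, the alpha chain of the laminin bound by Itga3 and by the Itga6 and Itgb4 pair, averaged 1.13 ± 0.267 CPM in early, 0.153 ± 0.0578 in intermediate, at the floor, 10.3 ± 3.75 in full and 99.0 ± 8.32 in resident cells (SD, n = 3). Its partner chain Lamb3 averaged 2.23 ± 0.448, 1.15 ± 0.368, 45.3 ± 12.4 and 243 ± 7.85 CPM (SD, n = 3). At the second step Lama3 rose by 6.002 and Lamb3 by 5.31 on the log2 scale, and at the third Lama3 rose by 3.26. Lamb1, a chain of other laminins, rose at the third step from 10.6 ± 1.46 to 74.8 ± 10.7 CPM (log2 2.82) (SD, n = 3). Vtn fell by 1.60 at the second step and by 3.47 at the third, to 55.6 ± 21.7 CPM in BEC, and Nid1, which links laminin to collagen IV networks, fell by 0.96 and by 2.25, to 48.8 ± 4.42 CPM (SD, n = 3).

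Of 20 adaptors and kinases that act on integrin tails, 13 rose and 3 fell at the first step, 8 rose and 2 fell at the second, and 3 rose and 6 fell at the third, with medians of 0.42, 0.16 and -0.03. Against the 54.4%, 40.7% and 21.3% of all genes called at these steps, the second-step count of 10 of 20 is near the background. The first-step rises included Src, a kinase of adhesion signalling, from 30.7 ± 5.54 to 103 ± 5.998 CPM (log2 1.74), and Tns3, a tensin, from 115 ± 9.97 to 257 ± 10.8 (log2 1.16) (SD, n = 3). Fermt1, the epithelial kindlin that activates integrins, averaged 1.205 ± 0.602, 5.12 ± 1.13, 61.8 ± 5.21 and 161 ± 3.91 CPM from early to BEC (SD, n = 3). It rose at each step, by 3.60 at the second and 1.38 at the third. The third step also held a rise of Tln2, a talin, by 0.84, and a fall of Zyx, a protein of stress fibres and focal adhesions, from 241 ± 40.4 to 90.4 ± 13.9 CPM (log2 -1.41) (SD, n = 3). Of the paired PINCH proteins, Lims1 rose at each step, by 0.49 at the second, and averaged 38.3, 67.5, 94.9 and 118 CPM from early to BEC. Its third-step call was lost, among other fits, without full replicate 1, 2 or 3. Lims2 fell by 0.97 at the second step and 0.81 at the third. Itgb1bp1, which binds the Itgb1 tail, fell by 0.44 at the first step and 0.45 at the second, and with total counts only the first was 0.22 and the second -0.26 (edgeR adjusted p = 0.214). Neither passed with no filter on low counts (0.0701 and 0.0539). The first call was lost without early replicate 1 or 3 or intermediate replicate 1 or 3 (edgeR adjusted p from 0.0547 to 0.130), and the second without intermediate replicate 1 or 2 or any 1 full library (0.0574 to 0.103). The count at the third step was 9 in all and ranged from 4 to 10 when 1 library was left out, with 4 without full replicate 1 or 3 and 5 without full replicate 2, BEC replicate 1 or BEC replicate 2. At the second step it was 10 in all, and 6 without intermediate replicate 2.

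Of 8 hemidesmosome and tetraspanin partners, 7 could be tested. The hemidesmosomal collagen Col17a1 had at most 8 counts in any library, although Itgb4 reached 293 CPM. At the first step 4 rose and 1 fell, at the second 1 rose, and at the third 2 rose and 1 fell, with medians of 0.34, -0.00 and 0.12. The share of all genes called was 54.4%, 40.7% and 21.3% in the same order. Tspan8, a tetraspanin, rose at each step, from 34.7 ± 7.86 to 98.3 ± 25.1, 178 ± 28.3 and 557 ± 12.03 CPM (SD, n = 3), by 1.5001, 0.86 and 1.65 on the log2 scale. Cd151, the tetraspanin that binds laminin receptors, rose by 0.82 at the first step, from 115 ± 13.8 to 202 ± 16.5 CPM (SD, n = 3). Cd9 rose by 0.79 at the third step, and Dst, the gene of a plakin, fell there from 514 ± 55.1 to 183 ± 13.9 CPM (log2 -1.49) (SD, n = 3). Cd82 fell by 0.37 at the first step, a call that was lost without early replicate 1 (edgeR adjusted p = 0.135) or intermediate replicate 2 (0.0669) or 3 (0.102) and that turned to 0.30 with total counts only. The second-step count was 3 with the replicate block, beside 45% of all genes, which added falls of Cd9 and Cd82, 3 without early replicate 1, and 4 in the fit of 6 libraries, beside 45.6%. Without early replicate 3, intermediate replicate 3 or BEC replicate 1 it was 2.

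Genes of latent TGF-beta, the cargo of the Itgb6 and Itgb8 receptors, were also counted. Of 12, 8 rose and 1 fell at the first step, 7 rose and 1 fell at the second, and 2 rose and 4 fell at the third, with medians of 1.90, 0.57 and 0.06. Of all genes tested, 28.7%, 20.8% and 10.7% rose at these steps and 25.7%, 19.8% and 10.6% fell. Tgfb3 went from 0.478 ± 0.369 to 12.1 ± 3.30 CPM at the first step (log2 4.65) (SD, n = 3). Ltbp3, a latent TGF-beta binding protein, went from 3.26 ± 1.5003 to 73.9 ± 23.2 CPM at the first step and to 345 ± 37.8 at the second (log2 4.52 and 2.22) (SD, n = 3). Ltbp2 rose by 2.33 at the second step and Ltbp1 by 1.98 at the third. The receptor gene Tgfbr2 fell by 0.50 at the first step and 0.58 at the second, and with total counts only the first was 0.16. At the third step Ltbp4 fell from 83.1 ± 8.65 to 22.7 ± 4.41 CPM (log2 -1.87) and Tgfb1 from 30.96 ± 3.45 to 18.6 ± 0.830 (log2 -0.74) (SD, n = 3).

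**Figure D5:**
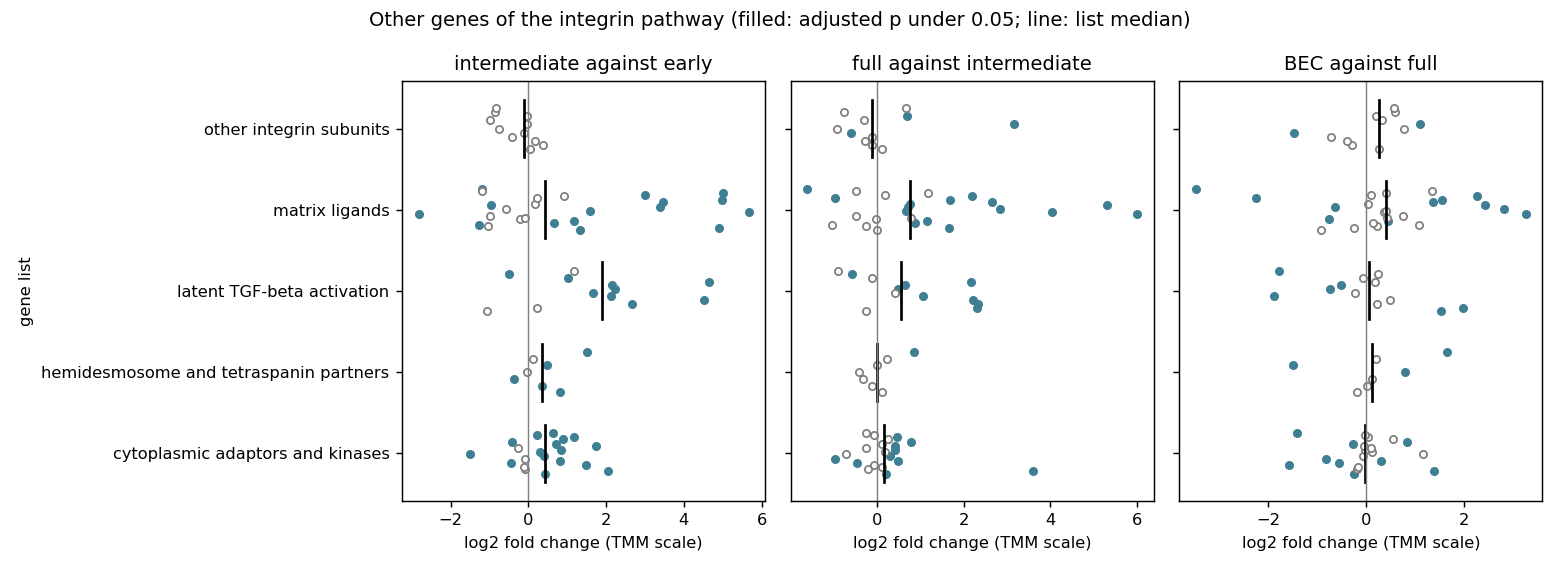
Log2 fold change of each tested gene of the 5 lists of related genes at the 3 steps, 1 panel per step; filled points passed an adjusted p of 0.05 in edgeR's test, open points did not, and the black line is the list's median. Other integrin subunits have 0 filled points at the first step, where the TGF-beta list has its highest median, 1.90.

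The 2 genes whose log2 CPM profile over the 12 libraries lay closest to each integrin were found by Euclidean distance after centring each gene. For Itgav they were Lama5, the laminin alpha chain of mature basement membranes (distance 0.508, Pearson's r = 0.991 over 12 libraries), and Serinc2 (distance 0.528). For Itga3 they were Zfp618 and Ninl, for Itga2 Hap1 and Rnft2, and for Itgb8 ccdc198 and Tet1. For Itgb4 they were Sema3c and P2rx2, and for Itgb6 Ap1m2, a subunit of the epithelial sorting adaptor (distance 1.86), and Cbx3-ps8, whose counts are uncertain because a pseudogene can share reads with its parent. For Itga6 they were Qsox2 and Sel1l3, for Itgb1 Clcn3 and Arhgap12, for Itga5 Pogz and Spty2d1, and for Itgb5 Dpp3 and Dctn2. The 20 correlations ran from 0.9498 to 0.998 and are descriptions, since the 12 libraries share 4 groups. Among the integrins themselves the closest pair was Itga5 and Itgb1, at a distance of 0.947 (Pearson's r = 0.576), larger than the distance from either to its nearest genes.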

How the data were processed

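Bulk RNA-seq was measured in 12 libraries, and groups came from titles and sorted markers in the labels. Of the 2 deposited tables, the authors made 1 of raw read counts for each gene and 1 of signal, which equals those counts divided by a size factor of each library. Only the counts were tested. STAR 2.7.10b, featureCounts 2.0.1, DESeq2 and the build GRCm39 are named in the submitters' processing notes. Annotation, strandedness and the treatment of multimapping reads are not given in the sources used here. 0 columns lacked a sample.

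R 4.3.3 with edgeR 4.0.16 was used, with DESeq2 1.42.0 as an alternative and Python 3.11.15 with matplotlib 3.10.9 for the plots. The filter was filterByExpr, whose genes held at least 99.8568% of each library's counts. Libraries were scaled by TMM and fitted together with 1 term per group (quasi-likelihood test, common biological coefficient of variation 14.8%, Benjamini-Hochberg over 16210 genes). Log2 CPM used a prior count of 2, on which shares of the change near the floor of 3 counts depend. Fitted fold changes did not use this value. For genes near the floor they depend on edgeR's own default prior count. Intervals and floors cover counting error only, since PCR copies are not independent molecules. Lengths and overlaps came from GENCODE M21, a GRCm38 annotation, with the longest protein-coding transcript of each gene, and promoters from RefSeq (GRCm38.p6). The procedure was tested on simulated counts in which few genes changed, as many up as down. That setting does not test how scaling acts where many genes change, as they did here.

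The members and lists were chosen with earlier results of these data known. Named genes are all 10 integrins, and per list, step and direction the 2 called genes with the largest fold change and at least 10 CPM in the higher group. Alternatives were DESeq2, other scaling and filters, fits with a replicate block or of only 6 libraries, a test against a 2-fold minimum, coding length and leaving out each library. Same-numbered libraries deviated together, with r of 0.121 to 0.293 at the first step, 0.137 to 0.322 at the second and 0.170 to 0.257 at the third. For BEC against early r was 0.0442 to 0.145. The replicate numbers may thus pair the libraries, but r between libraries of different number was not computed. The main fit and the permutation test took the libraries as unpaired. What the numbers mark is not stated. Some listed genes are not reported here.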

Additional observations from a re-analysis of the deposited data

How the results depend on the processing

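Leaving out 1 library moved the second-step count of hemidesmosome and tetraspanin partners between 1 and 3, the count of integrins with a different second step between 3 and 5, other integrin subunits at the first step between 0 and 2 and at the third between 1 and 2, and adaptors and kinases at the second step between 6 and 10 and at the third between 4 and 10. The share reached in full cells ranged from 0.964 to 1.006 for Itga2 and from 0.785 to 0.826 for Itgav. With the replicate block, other integrin subunits at the first step numbered 1, hemidesmosome partners at the second 3 and integrins with a different second step 5; the block changed no other call among the 10 integrins. With total counts only these 3 counts were 4, 3 and 7, beside 69.4%, 44.5% and 37.9% of all genes. With the same scaling the shares reached were 0.544 and 0.869 for Itga6 and 0.556 and 0.849 for Itgav at the intermediate and full stages, and genes higher made up 85.6% of all calls at the first step in place of 52.8%, 72.5% at the second in place of 51.2%, 80.2% from early to BEC in place of 54.8% and 7.16% of step differences in place of 34.3% (44.3% with median-of-ratios factors, 45.6% with DESeq2). Other integrin subunits at the first step numbered 1 with DESeq2 and 1 with no filter, and hemidesmosome partners at the second 2 with no filter and 4 in the fit of 6 libraries.

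Testing against a minimum 2-fold change lowered counts by its construction, and called 17.1%, 11.9% and 4.95% of all genes at the 3 steps and 37.8% from early to BEC. Integrins numbered 2 at the second step and 1 at the third. Adaptors and kinases numbered 2, 1 and 2 at the 3 steps and 8 from early to BEC. Hemidesmosome partners numbered 1 at the first step, 0 at the second and 1 from early to BEC, ligands 9, 8 and 6 at the 3 steps, TGF-beta genes 4 at the second, 2 at the third and 7 from early to BEC, and other integrin subunits 1 at the second, 1 at the third and 2 over the span.

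Coding length gave beta shares for Itgb1 of 67.1% in early, 61.6% in full and 48.6% in BEC, for Itgb4 of 7.08% in full and 12.7% in BEC, for Itgb5 of 32.7%, 27.7%, 16.9% and 11.6% from early to BEC, for Itgb6 of 11.7% in BEC, and for Itgb8 of 0.143%, 6.80%, 12.8% and 15.3%.

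Signs turned as follows, on the log2 scale. With total counts only the first step of Itgb5 was 0.636, of Itgb1bp1 0.223, of Cd82 0.296 and of Tgfbr2 0.164, Itgb5 from early to BEC was 0.247, and the step difference was -0.375 for Itgb1 and -0.229 for Itgb4. The third step of Itgb1 was 0.000344 with DESeq2, 0.00404 with median-of-ratios factors, 0.00538 with a mean of at least 50 counts, and ran from -0.0593 to 0.0410 over the fits without 1 library, positive without full replicate 1 (0.00550) or BEC replicate 3. The step difference of Itga6 was 0.0310 with DESeq2, 0.0408 with median-of-ratios factors and -0.125 to 0.0725 over the fits without 1 library, positive without intermediate replicate 3. That of Itgb4 ran from -0.368 to 1.19, negative without early replicate 2, intermediate replicate 2 (-0.0621) or intermediate replicate 3 (-0.266). The first step of Itgb5 was 0.00837 with no filter and ran from -0.122 to 0.0874, positive without early replicate 1, and the third step of Itga2 ran from -0.0380, without BEC replicate 1, to 0.222. Apart from total-count scaling, coding length and the minimum fold change, whose construction moves these values, the cause was not tested. Depth limits Itgb6, Itgb4 and Itgb8 in early cells, where 0 to 13 counts per library stand behind each value.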
